A study of Oryza sativa Indica Group and Oryza sativa Japonica Group with 8 samples.

Results

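The genes described here encode proteins of the ribosome and subunits of the 26S proteasome of rice. They were taken from the array's probe-to-gene annotation: every probe set mapped to 1 nuclear gene whose symbol or synonym, with or without the prefix Os, is RPL, RPS, RPN or RPT followed by a number, without the RPS27A genes, which encode ubiquitin fused to a ribosomal protein. This gave 50 of the 57258 probe sets on the array, and 32 of the 17905 genes that a probe set names alone. The ribosome had 39 probe sets of 23 genes, 17 probe sets of 13 genes for the large subunit (RPL) and 22 probe sets of 10 genes for the small subunit (RPS). The proteasome had 11 probe sets of 9 genes, 3 for ATPases of the regulatory particle (RPT) and 8 probe sets of 6 genes for its subunits that are not ATPases (RPN). All 39 and all 11 passed the filter on low values described below.

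RNA came from young panicles, collected from the microspore mother cell stage to meiosis, of 4 lines grown at day averages of 23 °C, the low and permissive temperature, or 28 °C, the high and restrictive one. AnS-1 is an indica line with thermosensitive genic male sterility, and AnN is its indica wild type. Os02g12290iL1 is a japonica RNA interference line against Os02g12290, and ZH11 is its japonica wild type. The design calls AnS-1 and Os02g12290iL1 tms5, and asks whether RNase ZS1 has a part in mRNA metabolism. There were 4 groups, tms5 or wild type at either temperature, with 2 arrays each, 1 indica and 1 japonica, so 1 array stood for each line at each temperature. The tms5 group joins a mutant and 1 RNA interference line, and the labels do not say how many plants a sample held. The level of Os02g12290 was not analysed here, since the gene names used do not include it.

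A ribosome is built from ribosomal RNA and, as a rule, 1 copy of each ribosomal protein, and the genes of these proteins are strongly expressed in growing and dividing tissue. The 26S proteasome degrades proteins tagged with ubiquitin: the RPT ATPases unfold the substrate and feed it into the 20S core, while the RPN subunits bind ubiquitin chains, remove them and hold the complex together. Cells of the tapetum, the layer that feeds developing pollen, are known for their many ribosomes.

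Values are fluorescence intensities after quantile normalization, and differences are on the log2(intensity + 16) scale, a scale that makes changes of dim probe sets look smaller than they are. The deposited arrays lay on 3 scales: their medians were 139 in AnS-1 and 141 in AnN at high temperature, 59.2 in AnS-1 and 61.3 in AnN at low temperature, and between 109 and 117 in the 4 japonica arrays. In indica, temperature and array scale therefore cannot be told apart. The upper 60% of probe sets by mean level, 34317, were tested with limma. A probe set counts as called where its p, adjusted over all of them after Benjamini and Hochberg, is under 0.05. With 8 arrays and 2 residual degrees of freedom, precision was low. The labels name no separate plants or dates, and p-values measure the spread between these arrays. In such tissue RNA, fewer cells of a type and less RNA per cell cannot be told apart. Levels of different probe sets are not compared with each other. Probe sets of the same gene are told apart by the ending of their ID (S1_at, S2_at and so on) and, where that is shared, by their range over the arrays.

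After quantile normalization most of these probe sets varied little. Over the 8 arrays the range between the highest and the lowest value had a median of 0.62 on the log2 scale for the ribosome and 0.52 for the proteasome, against 0.96 for all tested probe sets. The range was under 1 in 34 of the 39 ribosomal probe sets (87.2%) and in all 11 of the proteasome, against 52.4% of all tested. Most members were bright, and the share among bright probe sets alone was not computed. With deposited values 38 of the 39 and all 11 were higher at high temperature in both indica lines, so this steadiness depends on the scaling. RPS15, a small subunit protein near the decoding site, was among the steadiest. It had 4999 in AnS-1 and 4355 in AnN at high temperature, and 4923 in AnS-1 and 4214 in AnN at low temperature. The japonica arrays gave 4628 in Os02g12290iL1 and 4408 in ZH11 at high temperature, and 4853 in Os02g12290iL1 and 4584 in ZH11 at low temperature. In AnS-1 and in AnN these quantile normalized values were close at both temperatures. The 8 values of RPS15 lay within 0.25 on the log2 scale. RPL9 of the large subunit spanned 0.28, RPS21 0.29 on probe set S1_at, and RPL39B, which lines the exit tunnel of the new protein, 0.28 on probe set S1_x_at. At the other end stood RPS3A on probe set S2_at with a range of 5.53, RPL10A on S1_at with 4.36, and RPL27 on S1_s_at with 1.37 and on S1_at of wider range with 1.12. In the proteasome RPN7 had the widest range, 0.89, and the steadiest were RPN1A on probe set S2_at (0.23), RPN11, the subunit that cuts ubiquitin chains off the substrate (0.25), RPN5 on probe set S2_at (0.37) and RPT1A (0.38).

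**Figure D1:**
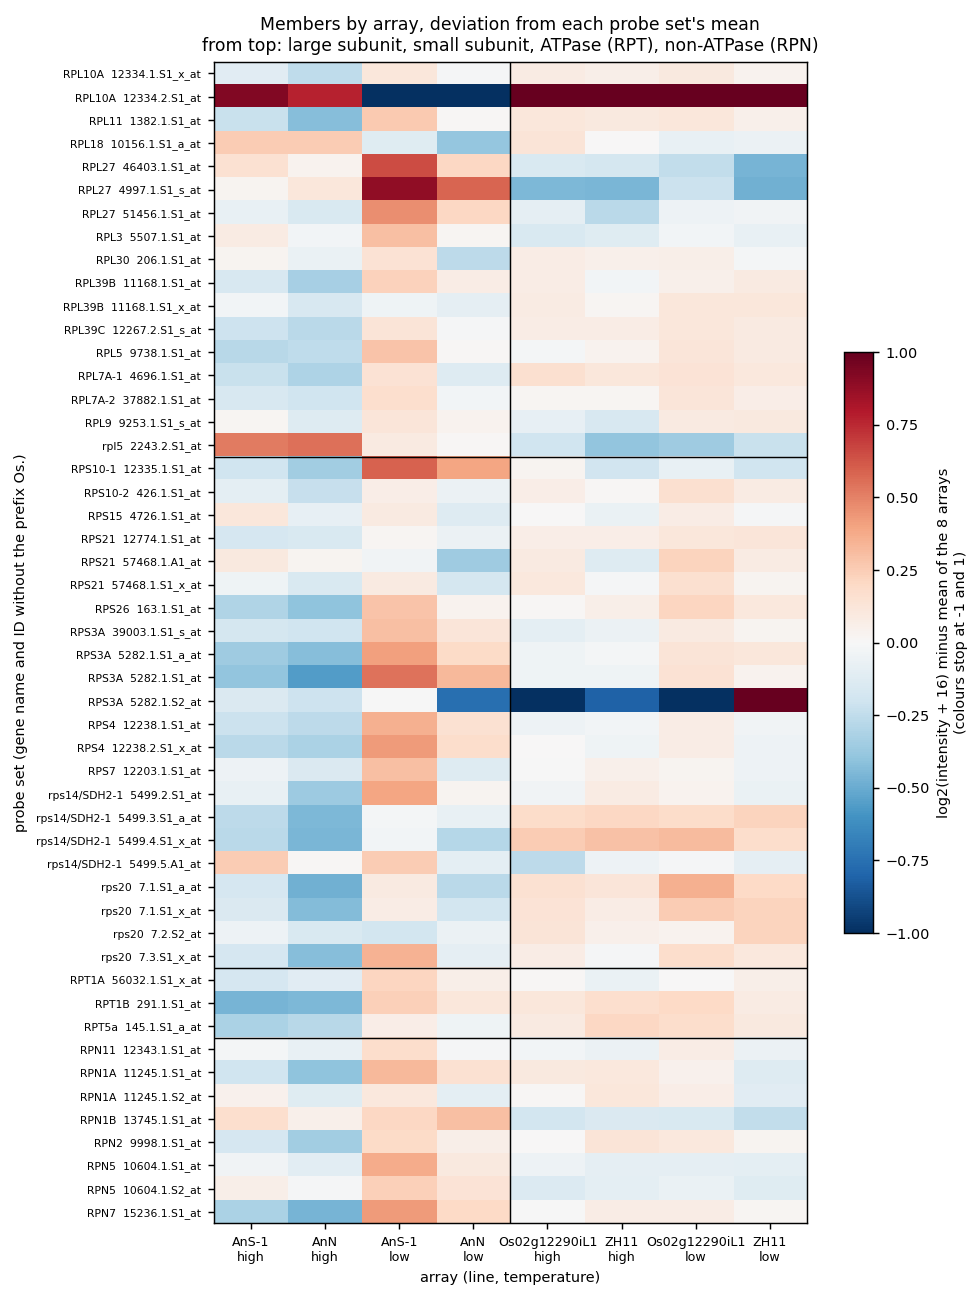
Deviation of each of the 50 probe sets (rows) from its own mean over the 8 arrays (columns), on the log2(intensity + 16) scale after quantile normalization, with red above and blue below the mean. AnS-1 at low temperature is red in most rows and AnN at high temperature blue, while 1 RPL10A and 1 RPS3A probe set pass the limits of the colour scale. With deposited values 38 of 39 ribosomal and all 11 proteasome probe sets are instead higher at high temperature in both indica lines.

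The same 2 arrays stood at the ends for most members. AnS-1 at low temperature had the highest value in 22 of 39 ribosomal probe sets and 8 of 11 proteasome probe sets, against 24.06% of all tested probe sets. AnN at high temperature had the lowest value in 22 of 39 and 6 of 11, against 22.46% of all tested. The median deviation of the ribosomal probe sets from their own means was -0.15 in AnS-1 and -0.21 in AnN at high temperature, and 0.15 in AnS-1 and -0.03 in AnN at low temperature. For the proteasome it was -0.16 in AnS-1 and -0.12 in AnN at high temperature, and 0.21 in AnS-1 and 0.094 in AnN at low temperature. In japonica the ribosomal medians lay between 0.0042 (ZH11 at high temperature) and 0.10 (Os02g12290iL1 at low temperature). Those of the proteasome lay between -0.057 (ZH11 at low temperature) and 0.073 (ZH11 at high temperature). The medians of the japonica arrays were thus closer to each other than those of the indica arrays.

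The first comparison asks how the tms5 lines differed from the wild types at the restrictive temperature. No ribosomal or proteasome probe set was called by limma, none had an unadjusted p under 0.05, and all adjusted p were 1.00 when rounded. Of all tested probe sets 0% were called higher and 0.00874% lower, and 3.75% had an unadjusted p under 0.05. No member differed by at least 1.5-fold in both pairs, where 0.0408% of all tested were higher by that much and 0.988% lower. In the ribosome 22 of 39 probe sets were higher in tms5 in both pairs of lines, where 31.7% of all tested were, and 2 were lower in both, where 20.4% were. The median difference was 0.11 for AnS-1 minus AnN and 0.022 for Os02g12290iL1 minus ZH11, and over all tested 0.037 and 0.008. These sizes are small beside the scaling of the arrays: with median centring only 7 ribosomal probe sets were higher in both pairs, and with deposited values 19.

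Among large subunit probe sets 11 of 17 were higher in both pairs at high temperature, and among small subunit ones 11 of 22. RPS10-1, a small subunit protein at the entry of the messenger, was the one with the largest difference shared by both pairs. It had 1779.9 in AnS-1 against 1606 in AnN, and 2084 in Os02g12290iL1 against 1788 in ZH11. Both tms5 values exceeded their own wild type, and the mean difference was 0.18 ± 0.095 (SE, limma, adjusted p = 1.00). For RPS21 on probe set S1_x_at the values were 3848 in AnS-1 against 3558 in AnN, and 4279 in Os02g12290iL1 against 3939.6 in ZH11. For rps20 on probe set S1_x_at of wider range they were 2186 in AnS-1 against 1827 in AnN, and 2589 in Os02g12290iL1 against 2443 in ZH11. RPL39B on probe set S1_at had 4067 in AnS-1 against 3612 in AnN, and 4808 in Os02g12290iL1 against 4465 in ZH11. In each of these the tms5 value was again above its wild type. RPL5, which carries 5S ribosomal RNA into the large subunit, ran the other way, with 4419 in AnS-1 against 4488 in AnN, and 5283 in Os02g12290iL1 against 5477 in ZH11 and a mean difference of -0.037 ± 0.11. Also lower in tms5 in both pairs was RPS21 on probe set S1_at. Probe sets named RPS21 thus ran in opposite directions.

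The proteasome had no shared direction at high temperature: 2 of 11 probe sets were higher in tms5 in both pairs, 2 were lower and 7 differed in opposite directions. Of all tested probe sets 31.7% were higher in both pairs and 20.4% lower. The median difference was 0.071 for AnS-1 minus AnN and -0.039 for Os02g12290iL1 minus ZH11. All 8 RPN probe sets were higher in AnS-1 than in AnN, and 6 of the 8 were lower in Os02g12290iL1 than in ZH11. Thus 2 of the 8 (25%) were higher in both pairs and 0 lower, beside these shares of all tested. With median centring 0 were higher in both pairs and the median over both was -0.019, against 0.034 with quantile normalization. Higher in both pairs with quantile normalization were RPN11, with 2463 in AnS-1 against 2359.9 in AnN, and 2443 in Os02g12290iL1 against 2389 in ZH11, and RPN5 on probe set S1_at, with 1750.5 in AnS-1 against 1673 in AnN, and 1735 in Os02g12290iL1 against 1684 in ZH11. Those lower in both were the ATPases RPT1B, with 2219 in AnS-1 against 2237 in AnN, and 3320.1 in Os02g12290iL1 against 3451 in ZH11, and RPT5a, with 1963 in AnS-1 against 2011 in AnN, and 2604 in Os02g12290iL1 against 2824 in ZH11.

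At the permissive temperature the tms5 lines had slightly higher values for most members, but none was called. No probe set was called among all tested either (0% in each direction). An unadjusted p under 0.05 was found for 2 ribosomal probe sets, 0 of the proteasome and 8.53% of all tested. A difference of at least 1.5-fold in both pairs was reached by 0 members, and upward by 0.0903% and downward by 0.973% of all tested. In the ribosome 28 of 39 probe sets were higher in both pairs, where 35.2% of all tested were, and 2 were lower, where 26.6% were. That count was 34 with median centring and 26 with deposited values. The median difference was 0.25 for AnS-1 minus AnN and 0.061 for Os02g12290iL1 minus ZH11, against 0.018 and 0.024 over all tested. In the proteasome 9 of 11 were higher in both pairs and 0 lower, with medians of 0.16 and 0.083 for the indica and the japonica pair. The share was 18 of 22 in the small subunit and 10 of 17 in the large one.

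RPL27, a large subunit protein with 3 probe sets, had the largest difference shared by both pairs at low temperature. Its probe set S1_at of wider range had 529 in AnS-1 against 383 in AnN, and 276 in Os02g12290iL1 against 235 in ZH11, and a mean difference of 0.34 ± 0.11 (limma, adjusted p = 0.497). Its probe set S1_s_at had 844 in AnS-1 against 682 in AnN, and 384 in Os02g12290iL1 against 318 in ZH11, and a mean difference of 0.28 ± 0.10 (adjusted p = 0.497). In both the gap was wider in indica, and the third probe set, S1_at of narrower range, had 218 in AnS-1 against 179 in AnN, and 147 in Os02g12290iL1 against 148 in ZH11, so that only its indica pair was higher in tms5. For rps14/SDH2-1 the values on probe set S1_x_at were 1804 in AnS-1 against 1507 in AnN, and 2294 in Os02g12290iL1 against 2080.0 in ZH11. For rps20 the values on probe set S1_a_at were 3739 in AnS-1 against 2919 in AnN, and 4504 in Os02g12290iL1 against 4034 in ZH11. In each of these the tms5 value was the higher one. RPL27, rps14/SDH2-1 and rps20 are among the genes, given below, whose names may point to organelle ribosomes. Without those genes 20 of 26 ribosomal probe sets were higher in both pairs, where 35.2% of all tested were. Of these 26, 0 had an unadjusted p under 0.05 (limma), against 8.53% of all tested. The other way ran rps20 on probe set S2_at, with 305 in AnS-1 against 334 in AnN, and 358 in Os02g12290iL1 against 410.3 in ZH11. In the proteasome RPN1A, a scaffold that receives ubiquitin receptors, had 1420.1 in AnS-1 against 1261 in AnN, and 1167 in Os02g12290iL1 against 1034 in ZH11 on probe set S1_at. On its other probe set it had 3438 in AnS-1 against 2978 in AnN, and 3351 in Os02g12290iL1 against 2943 in ZH11. RPN11 had 2819 in AnS-1 against 2468 in AnN, and 2618 in Os02g12290iL1 against 2393 in ZH11, and RPT1B had 3617 in AnS-1 against 3306 in AnN, and 3510.4 in Os02g12290iL1 against 3239.6 in ZH11. Each tms5 value of these 3 proteasome genes was above that of its wild type, and their adjusted p lay between 0.509 and 0.581.

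**Figure D2:**
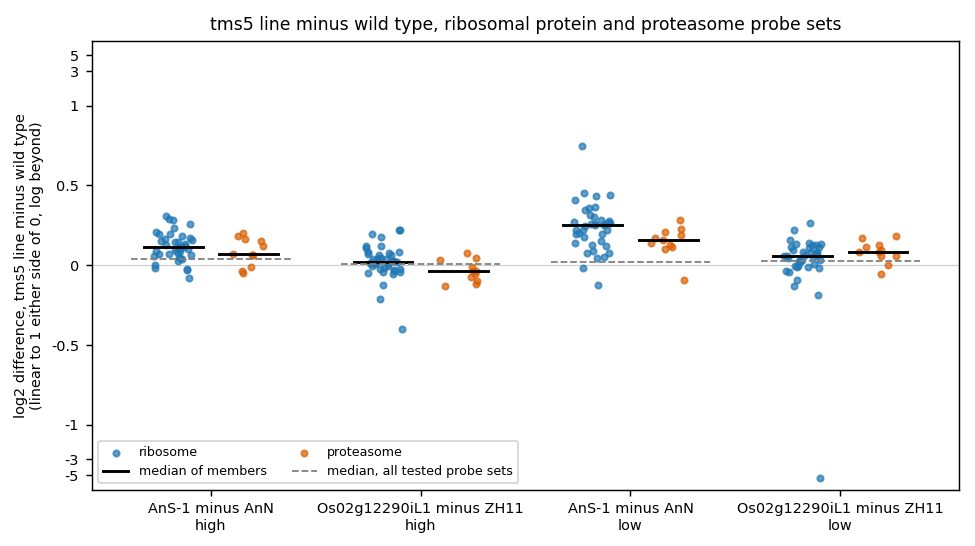
Difference of tms5 line minus wild type for each ribosomal (blue) and proteasome (orange) probe set, in the indica and japonica pair at high and at low temperature, on the log2(intensity + 16) scale after quantile normalization; the vertical axis is linear within 1 of 0 and logarithmic beyond. Black bars are medians of the members and dashed lines medians of all tested probe sets, and the largest shift is that of AnS-1 minus AnN at low temperature.

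The change of the tms5 difference between temperatures was also not called for any member by limma (0% of all tested in each direction), and no member had an unadjusted p under 0.05, against 4% of all tested. In no member did the tms5 difference shift by at least 1.5-fold in both backgrounds, as it did upward in 1.05% and downward in 0.851% of all tested. The tms5 difference was smaller at high than at low temperature in both backgrounds for 21 of 39 ribosomal probe sets, where 31% of all tested were. It was larger at high temperature in 7, where 29.2% were. In the proteasome these counts were 6 and 0 of 11. With median centring the tms5 difference was smaller in 32 ribosomal and 9 proteasome probe sets, and with deposited values in 22 and 6. The ribosomal median was -0.081 and the proteasome median -0.088. In indica and japonica together the change was -0.27 ± 0.15 for RPL27 on S1_at of wider range, -0.15 ± 0.15 for RPS26, which lies at the messenger exit, and -0.16 ± 0.13 for RPT1B, with adjusted p between 0.767 and 0.781. These 3 comparisons share arrays, so their counts are not independent of each other.

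The next comparison sets high against low temperature within the indica lines, and here members passed the test. After quantile normalization 14 of 39 ribosomal probe sets (10 of 23 genes) fell at high temperature in indica and 3 rose, where 26.2% of all tested fell and 19.8% rose. In the proteasome 4 of 11 probe sets, of 4 of 9 genes, fell and 0 rose. At high temperature 28 of the 39 ribosomal probe sets were lower in both AnS-1 and AnN, where 48.9% of all tested were, and 6 were higher, where 34.1% were. All 11 proteasome probe sets were lower in both lines. An unadjusted p under 0.05 was found for 19 ribosomal probe sets, 6 of the proteasome and 56.4% of all tested. Both warm indica arrays lay below both cool ones in 23 ribosomal and 10 proteasome probe sets, where 44.2% of all tested did so. They lay below all the other 6 arrays, japonica included, in 18 and 6, where 23.5% did. A change of at least 1.5-fold in both lines was reached by 3 ribosomal probe sets downward, where 12.2% of all tested reached it, by 1 upward, where 14% did, and by 1 of the proteasome downward. The share of ribosomal probe sets that rose was thus below the background, the share that fell above it, and large changes were fewer.

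The median difference of the ribosome was -0.25 in AnS-1 and -0.18 in AnN, and that of the proteasome -0.38 in AnS-1 and -0.23 in AnN. Over all tested probe sets it was -0.13 in AnS-1 and -0.10 in AnN. The sign depends on the scaling. With deposited values 32 ribosomal and 9 proteasome probe sets were called higher at high temperature and 0 lower. Of the 34317 tested, 27669 were then called higher and 832 lower. With median centring 31 and 10 members were called lower, where 12738 of all tested were. Of all calls 43.0% were upward with quantile normalization, 30.8% with median centring and 97.1% with deposited values. The median over all tested moved with it, at -0.12 with quantile normalization, -0.28 with median centring and 0.85 with deposited values. Relative to that median, the ribosomal median was lower by every scaling: -0.12, -0.31 and -0.23. That of the proteasome was too, at -0.19, -0.33 and -0.25. Below the median of all tested lay 28, 32 and 32 of the 39 ribosomal probe sets, and 10, 11 and 11 of the 11 of the proteasome. A fall in indica is therefore a fall relative to the median of all tested probe sets, bright and dim together.

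**Figure D3:**
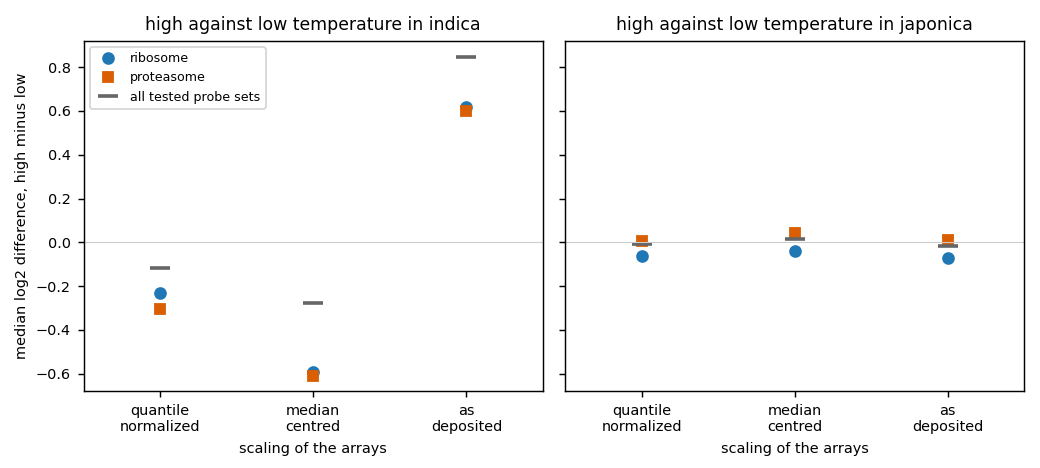
Median temperature difference (high minus low, log2) of the ribosomal (circles) and proteasome (squares) probe sets and of all tested probe sets (grey dashes) under 3 scalings, for indica on the left and japonica on the right. In indica all 3 medians are below 0 with quantile normalization and median centring and above 0 with deposited values, with both groups of members below the dash each time.

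Bright probe sets behaved differently from dim ones, and the members were bright: 29 of the 39 ribosomal and all 11 proteasome probe sets lay in the brightest of 5 equal groups of those tested. In that group, after quantile normalization, the median temperature difference in indica was -0.037, and 15.9% of probe sets rose and 19.9% fell. The other scalings were not examined by brightness. Leaving out 1 array also takes its partner out of the comparison. Without either AnN array 10 of the 17 called ribosomal and 2 of the 4 called proteasome members stayed called, and without either AnS-1 array, or any 1 japonica array, 5 and 3 did. The probe sets called in each of these 8 fits were S1_at of RPL10A, S1_at of RPS10-1, S1_at and S1_a_at of RPS3A, S1_at of RPN7 and S1_at of RPT1B. With only the 4 indica arrays in the fit 8 members were called. Over all tested probe sets that fit called 10076, against 6783 higher and 8995 lower in the main fit. The share of all tested calls that stayed called without 1 array was not computed.

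In the small subunit 9 of 22 probe sets (40.9%) fell in indica at high temperature, beside 26.2% of all tested, and 0 rose, beside 19.8%, after quantile normalization, while with deposited values 8 of these 9 were higher, all but S1_at of RPS3A. RPS3A, which binds near the messenger exit and whose gene also carries the name of cyc07, a gene active in dividing cells of periwinkle, fell on 3 of its 4 probe sets. Probe set S1_at had 3454 in AnS-1 and 3092 in AnN at high temperature, and 6636 in AnS-1 and 5691 in AnN at low temperature. In japonica it had 4429.6 in Os02g12290iL1 and 4413 in ZH11 at high temperature, and 5026 in Os02g12290iL1 and 4656 in ZH11 at low temperature. Both warm indica values lay below the other 6, and both cool indica values above them. The difference was -0.91 ± 0.10 (SE, limma, adjusted p = 0.00388), or -0.79 relative to the median of all tested, -1.02 with median centring and -0.93 with deposited values. Probe set S1_a_at had 2699 in AnS-1 and 2569 in AnN at high temperature, and 4618 in AnS-1 and 3966 in AnN at low temperature. Its difference was -0.70 ± 0.10 (adjusted p = 0.00797), and on probe set S1_s_at, which shares probes with other transcripts, it was -0.40 ± 0.11 (adjusted p = 0.0356). The fall was thus seen on 3 probe sets of this gene, though to unlike extents.

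RPS10-1 had 1779.9 in AnS-1 and 1606 in AnN at high temperature, and 3083 in AnS-1 and 2693 in AnN at low temperature. In japonica it had 2084 in Os02g12290iL1 and 1788 in ZH11 at high temperature, and 1941 in Os02g12290iL1 and 1775 in ZH11 at low temperature. Here the cool indica arrays stood above the other 6. The difference was -0.76 ± 0.10 (adjusted p = 0.00586), and relative to the median of all tested it was -0.65, with -0.72 from deposited values. Its paralogue RPS10-2 had 4618 in AnS-1 and 4222 in AnN at high temperature, and 5176 in AnS-1 and 4756 in AnN at low temperature, with a difference of -0.17 ± 0.10 that was not called (adjusted p = 0.212). RPS4 of the small subunit fell on both probe sets, by 0.59 ± 0.11 on S1_x_at (adjusted p = 0.0138) and by 0.49 ± 0.11 on S1_at (adjusted p = 0.022). RPS26, at the messenger exit, had 4154 in AnS-1 and 3872 in AnN at high temperature, and 6262 in AnS-1 and 5265 in AnN at low temperature. Its difference was -0.52 ± 0.11 (adjusted p = 0.0199). The other 2 that fell were rps20 on probe set S1_x_at of wider range (-0.43 ± 0.11, adjusted p = 0.0304) and rps14/SDH2-1 on probe set S1_at (-0.43 ± 0.11, adjusted p = 0.0337). The last of these genes also encodes a subunit of succinate dehydrogenase, and its rps14 part a protein of the mitochondrial ribosome.

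In the large subunit 5 of 17 probe sets fell (29.4%) and 3 rose (17.6%), shares near the 26.2% and 19.8% of all tested, and with deposited values all 8 of them were higher. RPL11, which binds 5S ribosomal RNA together with RPL5, had 3775 in AnS-1 and 3271 in AnN at high temperature, and 5281 in AnS-1 and 4439 in AnN at low temperature. Its difference was -0.46 ± 0.10 (adjusted p = 0.0203). RPL5 itself had 4419 in AnS-1 and 4488 in AnN at high temperature, and 6531 in AnS-1 and 5375 in AnN at low temperature, a difference of -0.41 ± 0.12 (adjusted p = 0.0476). In both genes the warm indica values lay below the cool ones. RPL27 fell on S1_s_at (-0.67 ± 0.14, adjusted p = 0.0209) and on S1_at of narrower range (-0.45 ± 0.11, adjusted p = 0.0323), and RPL39B on S1_at (-0.40 ± 0.10, adjusted p = 0.033). Those that rose, beside RPL10A described below, were RPL18 and rpl5. RPL18 had 2325 in AnS-1 and 2327 in AnN at high temperature, and 1793 in AnS-1 and 1488 in AnN at low temperature, a difference of 0.51 ± 0.12 (adjusted p = 0.0264). The gene named rpl5 in lower case, which is another gene than RPL5, had 1112 in AnS-1 and 1133 in AnN at high temperature, and 819 in AnS-1 and 775 in AnN at low temperature, a difference of 0.49 ± 0.12 (adjusted p = 0.033). The 5 genes RPL18, RPL27, rpl5, rps14/SDH2-1 and rps20 carry a synonym or spelling that may point to organelle ribosomes. Without their 13 probe sets, 10 of 26 ribosomal probe sets fell and 1 rose.

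In the proteasome RPN7, a subunit of the lid, fell most, and with deposited values all 4 called subunits were higher at high temperature. It had 2631 in AnS-1 and 2367 in AnN at high temperature, and 4398 in AnS-1 and 3761 in AnN at low temperature. In japonica it had 3277 in Os02g12290iL1 and 3449 in ZH11 at high temperature, and 3449 in Os02g12290iL1 and 3316 in ZH11 at low temperature. The difference was -0.70 ± 0.10 (adjusted p = 0.00779), and the warm indica arrays were the lowest of the 8 and the cool ones the highest. The ATPase RPT1B had 2219 in AnS-1 and 2237 in AnN at high temperature, and 3617 in AnS-1 and 3306 in AnN at low temperature. Its japonica values were 3320.1 in Os02g12290iL1 and 3451 in ZH11 at high temperature, and 3510.4 in Os02g12290iL1 and 3239.6 in ZH11 at low temperature. Its difference was -0.63 ± 0.11 (adjusted p = 0.0121), with the warm indica arrays alone at the low end. RPN1A fell on probe set S1_at, with 982 in AnS-1 and 851 in AnN at high temperature, and 1420.1 in AnS-1 and 1261 in AnN at low temperature, by 0.54 ± 0.11 (adjusted p = 0.0163). On probe set S2_at of the same gene the difference was -0.043 ± 0.12 (adjusted p = 0.781), so its probe sets disagreed on the size. RPN2, a scaffold like RPN1, had 2919 in AnS-1 and 2572 in AnN at high temperature, and 3754 in AnS-1 and 3412 in AnN at low temperature, a difference of -0.38 ± 0.11 (adjusted p = 0.0435). Relative to the median of all tested, with deposited values, RPN7 was lower by 0.71, RPT1B by 0.62 and RPN1A by 0.45. Not called were RPT5a (-0.31 ± 0.11, adjusted p = 0.0801), RPT1A (-0.27 ± 0.11, adjusted p = 0.105), RPN5, RPN11 and RPN1B. The table gives the RPT1A gene the further synonym OsRPT1b, so the names of these RPT1 genes may be exchanged elsewhere.

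**Figure D4:**
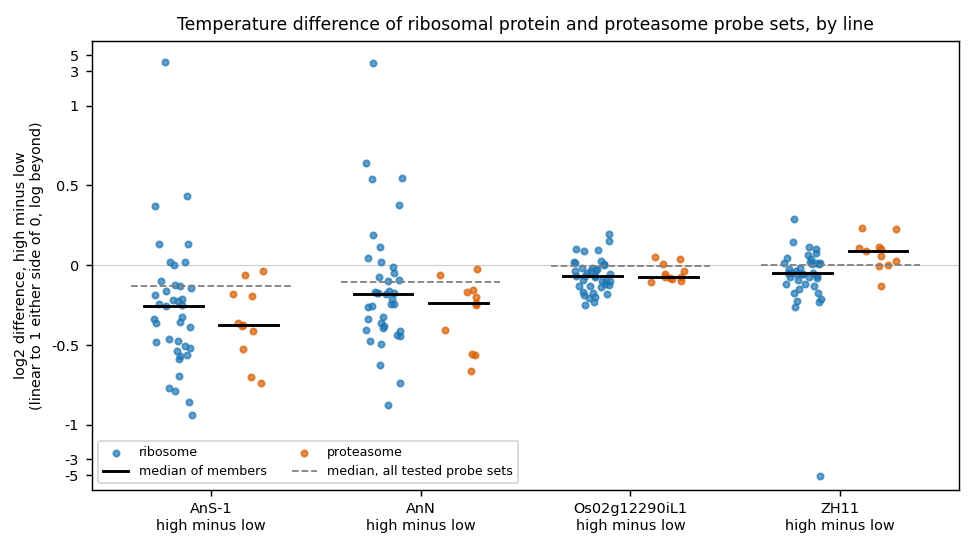
Difference between high and low temperature for each ribosomal (blue) and proteasome (orange) probe set, in each of the 4 lines, on the log2(intensity + 16) scale after quantile normalization; the vertical axis is linear within 1 of 0 and logarithmic beyond. Black bars are medians of the members and dashed lines medians of all tested probe sets; the medians of the indica lines lie lower than those of the japonica lines, an order that deposited values turn round, and 1 RPS3A probe set lies at -5.13 in ZH11.

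In japonica no member, and no probe set of all tested, was called between temperatures by limma (0% in each direction); 0 members and 7.67% of all tested had an unadjusted p under 0.05. Of the ribosomal probe sets 21 of 39 were lower at high temperature in both lines, where 30.2% of all tested were, and 6 were higher, where 28.6% were. The median difference was -0.068 in Os02g12290iL1 and -0.049 in ZH11, small beside the indica medians. No member reached 1.5-fold in both lines, where 0.839% of all tested did upward and 0.851% downward. Both warm japonica arrays lay below both cool ones in 17 ribosomal probe sets and 0 of the proteasome, where 23.5% of all tested did so. With median centring 9 were lower in both lines and 3 higher. The largest difference downward in both lines was that of RPL9, with 3848 in Os02g12290iL1 and 3641 in ZH11 at high temperature, and 4342 in Os02g12290iL1 and 4365 in ZH11 at low temperature, a difference of -0.22 ± 0.10 (adjusted p = 0.705). In the proteasome 2 of 11 were higher in both lines, 1 was lower and 8 went in opposite directions, with medians of -0.072 in Os02g12290iL1 and 0.091 in ZH11. RPN1A on probe set S1_at was highest among these, with 1209 in Os02g12290iL1 and 1219 in ZH11 at high temperature, and 1167 in Os02g12290iL1 and 1034 in ZH11 at low temperature, a difference of 0.14 ± 0.11 (adjusted p = 0.796).

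The temperature difference of indica minus that of japonica was tested directly. Of the ribosomal probe sets 1 was called higher, where 12% of all tested were, and 2 lower, where 10.7% were, and in the proteasome 0 were called higher and 3 lower. An unadjusted p under 0.05 was found for 12 ribosomal probe sets, 3 of the proteasome and 40.4% of all tested. By at least 1.5-fold in both classes of line, 1 ribosomal probe set was higher, where 13.5% of all tested were, and 2 ribosomal and 2 proteasome probe sets were lower, where 11.9% were. Those lower were RPS10-1 (-0.82 ± 0.14, adjusted p = 0.022), RPS3A on S1_at (-0.78 ± 0.14, adjusted p = 0.0255), RPN7 (-0.69 ± 0.15, adjusted p = 0.0344), RPN1A on S1_at (-0.68 ± 0.15, adjusted p = 0.0378) and RPT1B (-0.64 ± 0.16, adjusted p = 0.0482). Their adjusted p lay between 0.022 and 0.0482. Leaving out any 1 of the 4 japonica arrays left no member and no other probe set called, and leaving out an indica array left 4 (AnN, either temperature) or 3 (AnS-1, either temperature) of these 6 members called. All 11 proteasome probe sets were lower in indica for both the tms5 lines and the wild types, as were 26 of 39 ribosomal ones, where 48.3% of all tested were. In 9 ribosomal probe sets both were higher, where 32.8% were. With deposited values the difference was positive in both for 38 of the 39 and all 11, and 97.9% of all calls were upward, against 36.8% with median centring and 52.7% with quantile normalization.

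A single probe set of RPL10A, a protein of the stalk where spent transfer RNA leaves the ribosome, stood far from the rest. Probe set S1_at had 1433 in AnS-1 and 1279 in AnN at high temperature, and 72.3 in AnS-1 and 73.4 in AnN at low temperature. Its values in japonica were 1579 in Os02g12290iL1 and 1535 in ZH11 at high temperature, and 1681 in Os02g12290iL1 and 1792 in ZH11 at low temperature. The 2 cool indica arrays were low and the other 6 alike. The difference in indica was 3.95 ± 0.11 (adjusted p = 0.00068), and that of indica minus japonica 4.10 ± 0.16 (adjusted p = 0.00353); with deposited values the indica difference was 5.03. In indica it was called in each of the 8 fits with 1 array left out, and for indica minus japonica in the 4 that left out an indica array. The gap of 3.86 between the higher cool indica array and the lowest of the other 6 was reached by 26 of the tested probe sets (0.0758%), and its rise ranked 62 among all tested. The other probe set of the gene, S1_x_at, which shares probes with other transcripts, had 5244 in AnS-1 and 4743 in AnN at high temperature, and 6127 in AnS-1 and 5613 in AnN at low temperature, a difference of -0.23 ± 0.10 (adjusted p = 0.11). The probe sets of RPL10A thus had opposite signs in indica after quantile normalization and with median centring, where S1_x_at was lower by 0.62, whereas with deposited values S1_x_at was higher by 0.59 and the signs were the same.

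RPS3A had a similar case on its remaining probe set, S2_at. In japonica it had 107 in Os02g12290iL1 and 147 in ZH11 at high temperature, and 109 in Os02g12290iL1 and 5674 in ZH11 at low temperature. In indica it had 242 in AnS-1 and 231 in AnN at high temperature, and 269 in AnS-1 and 154 in AnN at low temperature. ZH11 at low temperature alone was high, and the other 7 arrays lay between 107 and 269. The gap of 4.32 to the next array was reached by 4 of the tested probe sets, itself included. On the other 3 probe sets of RPS3A, ZH11 at low temperature did not stand out. The tms5 difference at low temperature of -2.38 ± 1.47 (adjusted p = 0.524) and the japonica temperature difference of -2.57 ± 1.19 (adjusted p = 0.706) of this probe set rest on that 1 array. Without either cool indica array the comparison at low temperature holds 1 array of each class, ZH11 among them, and takes its spread from the other arrays. In that fit its tms5 difference at low temperature was -5.51 and called (limma, adjusted p = 0.00731), as was its change between temperatures, and both values still rest on the ZH11 array. A gap of at least 4 in 1 array alone was found for 5 tested probe sets in ZH11 at low temperature, 5 in Os02g12290iL1 at high temperature and 0 or 1 in each of the other 6 arrays. Probe sets of 1 gene also disagreed for RPL27, rps14/SDH2-1 and rps20.

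**Figure D5:**
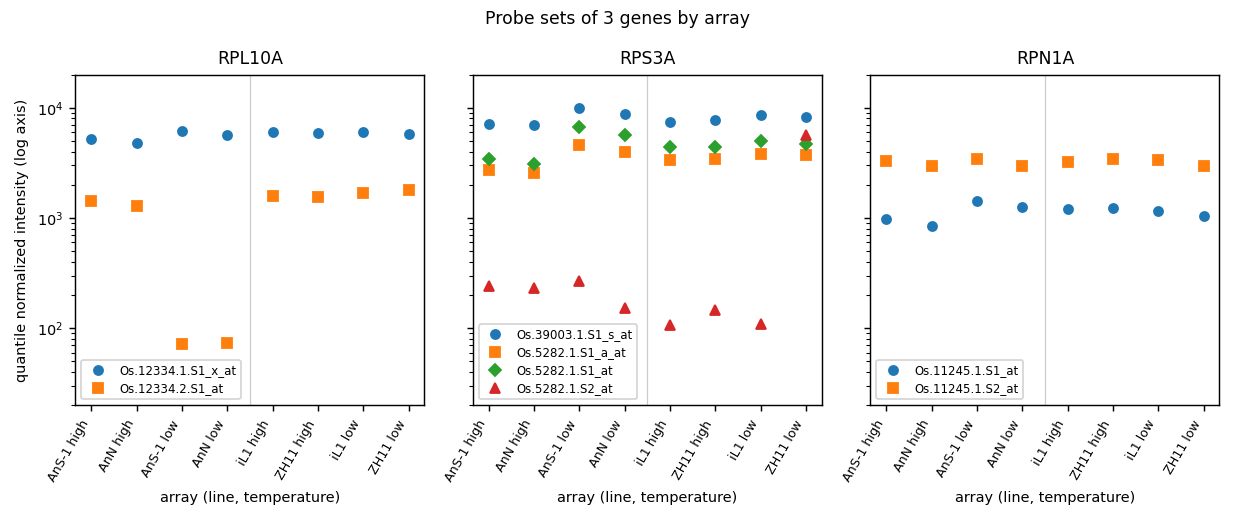
Quantile normalized intensity (log axis) of each probe set of RPL10A, RPS3A and RPN1A in the 8 arrays, indica left of the grey line and japonica right of it; iL1 is Os02g12290iL1. The cool indica arrays at 72.3 and 73.4 on 1 RPL10A probe set and the ZH11 array at low temperature at 5674 on 1 RPS3A probe set stand apart from the other arrays, while the second RPN1A probe set is level.

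Levels of indica and japonica lines at the same temperature and genotype class were compared as a description. Of the ribosomal probe sets 5 were higher in indica in all 4 pairs, where 27.7% of all tested were, and 10 lower, where 23.5% were, and of the proteasome 2 were higher and 1 lower. Among those higher in indica RPL27 was the clearest. On probe set S1_s_at it had 458 in AnS-1 and 486 in AnN at high temperature. At low temperature it had 844 in AnS-1 and 682 in AnN. Against these stood, in japonica, 326 in Os02g12290iL1 and 322 in ZH11 at high temperature, and 384 in Os02g12290iL1 and 318 in ZH11 at low temperature. All 4 indica values exceeded all 4 japonica ones. The difference was 0.47 for the tms5 lines and 0.57 for the wild types at high temperature, and 1.10 and 1.06 at low temperature. In rpl5 it was 0.72 and 0.95 at high temperature and 0.44 and 0.24 at low temperature. Among those lower, rps14/SDH2-1 on probe set S1_x_at had the largest difference shared by all 4 pairs. It was -0.53 and -0.75 at high temperature and -0.34 and -0.46 at low temperature. RPL27, rpl5 and rps14/SDH2-1 are among the genes whose names may point to organelle ribosomes. In RPN1B, the second RPN1 gene, the indica arrays had 3097 in AnS-1 and 2846 in AnN at high temperature, and 3174 in AnS-1 and 3386 in AnN at low temperature. The japonica arrays had 2424 in Os02g12290iL1 and 2487 in ZH11 at high temperature, and 2480.3 in Os02g12290iL1 and 2322 in ZH11 at low temperature. Here too the ranges did not overlap. The share of all tested probe sets with ranges that do not overlap was not computed.

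Other genes of these pathways, from lists chosen with earlier results known, were compared after quantile normalization only. The 20S core of the proteasome, where proteins are cut, had 12 probe sets of 10 genes. Of these 9 fell at high temperature in indica, where 26.2% of all tested did, and all 12 were lower in both lines, where 48.9% were, with a median of -0.44. In indica minus japonica 3 were called lower, where 10.7% of all tested were. The largest fall was that of OsPAB1 on probe set S1_s_at, with 1265 in AnS-1 and 1164 in AnN at high temperature, and 2476 in AnS-1 and 2095 in AnN at low temperature, a difference of -0.90 (adjusted p = 0.00401). Its other probe sets, which end in S1_at, fell by 0.37 (limma, adjusted p = 0.0381) and by 0.77 (adjusted p = 0.0079). The size of the fall thus differed between probe sets of OsPAB1. PBF1 had 2459 in AnS-1 and 2343 in AnN at high temperature, and 4096 in AnS-1 and 3681 in AnN at low temperature, a difference of -0.69 (adjusted p = 0.00886). In both genes the warm values lay below the cool ones. No core probe set was called between tms5 and wild type or between temperatures in japonica.

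Of 14 probe sets of 8 translation factor genes 3 fell in indica at high temperature and 1 rose, shares of 21.4% and 7.14% that lie below the 26.2% and 19.8% of all tested. The eIF-4G gene, whose protein holds the initiation complex at the cap, fell on 2 of its 4 probe sets, S2_s_at (-1.19, adjusted p = 0.00404) and S3_s_at (-0.54, adjusted p = 0.0174). On S1_s_at it differed by 0.046 (adjusted p = 0.787) and on S4_at by -0.13 (adjusted p = 0.43), so its probe sets disagreed. The gene of eIF-4E-1, which binds the cap, fell by 0.41 (adjusted p = 0.028). The one that rose was a probe set of eIF-4A-1, an RNA helicase, S1_at. It had 1173 in AnS-1 and 1022 in AnN at high temperature, and 48.6 in AnS-1 and 29.5 in AnN at low temperature. The japonica arrays gave 22.4 in Os02g12290iL1 and 35.9 in ZH11 at high temperature, and 24.5 in Os02g12290iL1 and 23.9 in ZH11 at low temperature. Only the 2 warm indica arrays were high, and the other 2 probe sets of that gene differed by 0.18 and -0.27, neither called. RRP46, an exosome subunit and the 1 gene of ribosome biogenesis matched, had 548 in AnS-1 and 473 in AnN at high temperature, and 1348 in AnS-1 and 707 in AnN at low temperature, a difference of -0.92 (adjusted p = 0.0222). Of 6 ubiquitin and ubiquitin-like precursor genes 3 fell, beside 26.2% of all tested. Ub-CEP52-1, which joins ubiquitin to ribosomal protein L40, had 4780.4 in AnS-1 and 4579 in AnN at high temperature, and 5952 in AnS-1 and 5147 in AnN at low temperature, a difference of -0.24 (adjusted p = 0.114). Ub-CEP52-2 fell by 0.39 (adjusted p = 0.0355). None of these genes was called between tms5 and wild type, and for the Ub-CEP52 genes those differences lay between 0.028 and 0.11.

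Markers of cell types moved with the indica temperature difference after quantile normalization. Of 13 probe sets of 12 genes of dividing cells (PCNA, the MCM helicase and origin recognition genes) 8 fell at high temperature in indica, where 26.2% of all tested fell and 19.8% rose, and their summed intensity was 6493 in AnS-1 and 4689 in AnN at high temperature, and 14504 in AnS-1 and 8098 in AnN at low temperature. In japonica it lay between 11266 and 12866. AnS-1 at low temperature had the highest and AnN at high temperature the lowest sum, as for most members. Of 11 probe sets of 8 meiotic genes 6 fell in indica, again beside 26.2% of all tested, with sums of 3735 in AnS-1 and 3085 in AnN at high temperature, and 6667 in AnS-1 and 5027 in AnN at low temperature. In japonica they lay between 6233 and 7573. Of 9 tapetum genes 4 rose in indica, beside 19.8% of all tested, with sums of 13937 in AnS-1 and 26417 in AnN at high temperature, and 6159.5 in AnS-1 and 11484 in AnN at low temperature. In japonica the tapetum sums lay between 23992 and 39198. In both indica lines 6 of the 9 were higher at high temperature, where 34.1% of all tested were. TIP2 alone was lower in both, where 48.9% were, and 2 differed in opposite directions. C6, the marker with the largest rise, had 708 in AnS-1 and 7438 in AnN at high temperature, and 8.85 in AnS-1 and 17.8 in AnN at low temperature. TIP2 had 1503 in AnS-1 and 1167 in AnN at high temperature, and 1580 in AnS-1 and 2048 in AnN at low temperature. Of 10 probe sets of 3 green tissue genes, 8 tested, 3 rose and 1 fell, on the same background. Their sums were 8777 in AnS-1 and 8508 in AnN at high temperature, and 8419 in AnS-1 and 15633 in AnN at low temperature. In japonica they lay between 3718 and 7338. Probe sets of RBCS and RCA rose. CAB2R fell on S1_a_at, with 2961 in AnS-1 and 2710 in AnN at high, and 4553 and 7312 at low temperature. The list thus had no shared direction. No marker was listed at 0 on any array. The part of these cell types in the differences of ribosomal and proteasome genes was not tested.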

How the data were processed

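Per the labels, total RNA of young panicles was hybridised as biotinylated cRNA to 8 Affymetrix rice arrays. The deposited values are linear intensities, 1 per probe set and array, made by the authors; the submitters' processing notes name Expression Console and RMA, with versions not given in the sources used here. Log2 values had been foreseen, as RMA gives them by default, and the linear unit was read from the values themselves. All value columns were used.

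Intensities of the 57258 probe sets were brought to 1 common distribution (quantile normalization, linear scale), 64 reporter probe sets were left out (57194 remained), and log2(intensity + 16) was taken. The upper 60% by mean, 34317, were tested with limma 3.58.1 (lmFit, eBayes, two-sided) in R 4.3.3. Genotype comparisons had the pair of arrays of a background and temperature as block (prior degrees of freedom 2.55), temperature comparisons the line (2.69). The 2 pairs of lines stood in for replicates. The fit was also run on simulated arrays with the same random spread for every probe set and no shift of array scale. Since the real arrays differ in both, that run gives no error rate for the calls reported here. Tables and figures used Python 3.11.15, pandas 2.3.3 and matplotlib 3.10.9.

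The probe table gave 1 gene for 22436 probe sets, several for 95 and none for 34727. The RefSeq gene table served for names only, and no coordinates were used. Of the members 12 probe sets carry the ID endings _s_at or _x_at of shared probes, and 8 ribosomal and 2 proteasome genes have over 1 probe set. Left out were 2 RPS27A probe sets. The members, lists and rules were chosen with earlier results of these data known. Named members were, per comparison, those called, up to 4 per direction with the largest difference shared by both pairs in each direction, those with the widest or narrowest range and genes whose probe sets disagree. Sequences and promoter motifs were not analysed here. Alternatives were other scalings, pseudocounts, filters, blocks, fits, member sets and leaving out each array.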

Additional observations from a re-analysis of the deposited data

Results flagged for a closer look

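The temperature difference of indica minus that of japonica passed the test for 6 members (limma, adjusted p over all tested probe sets). Each is listed here because the effect of temperature differed between the backgrounds by a test of that difference. Such calls were common on the array: 12% of all tested were called higher and 10.7% lower. In the ribosome these shares were smaller, 2.56% and 5.13%, and in the proteasome they were 0% and 27.27%. RPL10A on probe set S1_at differed by 4.10 ± 0.16 (SE, adjusted p = 0.00353). Its temperature difference was 4.04 in AnS-1 and 3.86 in AnN, against -0.09 in Os02g12290iL1 and -0.22 in ZH11. RPS10-1 differed by -0.82 (adjusted p = 0.022) and RPS3A on probe set S1_at by -0.78 (adjusted p = 0.0255). In the proteasome RPN7 differed by -0.69 (adjusted p = 0.0344), RPN1A on probe set S1_at by -0.68 (adjusted p = 0.0378) and RPT1B by -0.64 (adjusted p = 0.0482). With 1 array left out, RPL10A, RPS10-1 and RPS3A stayed called in 4 of 8 fits, RPN7 in 2 and RPN1A and RPT1B in 0. With deposited values the 5 negative values turned positive, to between 0.048 and 0.25, and none of the 5 was called. In these 5 members both indica lines were lower at high temperature after quantile normalization, while the japonica lines differed by at most 0.23 in either direction. The scale of the indica arrays moves with temperature, and its part in these values cannot be told apart from that of temperature.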

How the results depend on the processing

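Of 304 values of 18 results under other settings 232 stayed near the reported one, 68 moved and 4 reversed. A median counted as near where it moved by less than the standard deviation of its 2 pair medians, even if its sign changed. The proteasome median for tms5 at high temperature, 0.034, thus counted as near at -0.019 with median centring. A count of calls was near where the larger was at most 1.5 times the smaller. All 17 counts for japonica were 0 against 0. Reversed, with deposited values, were the median temperature differences in indica, to 0.6162 for the ribosome and 0.5981 for the proteasome, and those of indica minus japonica, to 0.6379 and 0.5695; calls then numbered 28501 and 24678, against 15778 and 7794, and 5 for tms5 at high temperature, against 3. With median centring the medians were -0.5898 and -0.6078 in indica, -0.6058 and -0.6682 for indica minus japonica, -0.1752 and -0.1832 for the change of the tms5 difference, and -0.0385 for the ribosome in japonica. Calls for tms5 at high temperature were 0 with a pseudocount of 1 or background alone as block, 5 with a trended and robust fit and 135 with only its 4 arrays. Calls in indica and for indica minus japonica were 27821 and 14983 with no filter and 8998 and 3687 with the upper 40%, where more or fewer probe sets were tested, and 10076 in indica with only its 4 arrays. With 1 probe set per gene the proteasome median of indica minus japonica was -0.2118. The cause of the other changes was not tested.

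Leaving out 1 array gave 0 to 135 calls for tms5 at high temperature (135 without any cool array, 0 without any warm one) and 0 to 2360 at low temperature (25 without a cool indica array, 2360 without a cool japonica one). It gave 0 to 1174 for the change of the tms5 difference (8 without a cool indica array, 1174 without a cool japonica one), 10076 to 13081 in indica and 0 to 8739 for indica minus japonica (0 without any japonica array). Ribosome medians ranged from -0.1732 to 0.0096 for the change of the tms5 difference, -0.2546 to -0.1778 in indica, -0.0681 to -0.0489 in japonica and -0.2542 to -0.1555 for indica minus japonica, and those of the proteasome from -0.1776 to -0.0292, -0.3773 to -0.235, -0.0721 to 0.0906 and -0.364 to -0.2499. The comparisons were already paired, by line or by the pair of arrays as block, and replicate numbers given in accession order pair nothing further. With 1 array per line and temperature, differences of the size seen between tms5 and wild type could not be detected singly.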
